A study of Mus musculus with 6 samples.

Results

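A group of 10 genes that lung cells use to oxidise drugs, pollutants and lipids were followed in sorted alveolar type 2 (AT2) cells with and without an active BMP receptor. They were 6 cytochrome P450 genes (*Cyp2b10*, *Cyp4b1*, *Cyp2s1*, *Cyp2d22*, *Cyp1a1* and *Cyp1b1*), the P450 reductase gene *Por*, the aryl hydrocarbon receptor gene *Ahr*, and 2 flavin monooxygenase genes (*Fmo1* and *Fmo2*). They were chosen by name as a functional group, with earlier results of these data known. The count table of 24421 genes held all 10 of them. All 10 also passed the filter on low counts, which left 16723 genes to test. AT2 cells were sorted by FACS from mice in which tamoxifen-inducible Cre under *Sftpc*, the surfactant protein C gene of AT2 cells, turned on tdTomato. AT2-CTRL mice were Sftpc-CreERT2/+; R26-tdTomato/+, and AT2-CAB mice were Sftpc-CreERT2/+; R26-tdTomato/R26-caBmpr1a, which adds a constitutively active BMP receptor 1A. Each group had 3 mice, sequenced as 3 polyA RNA libraries. In AT2-CTRL the second mouse was 16 weeks old and the others 12 weeks, and in AT2-CAB the first was 16 weeks old and the others 12 weeks. Cells were sorted on the tdTomato label, and the 2 Rosa26 alleles recombine separately, so an AT2-CAB library can hold labelled cells without the active receptor.

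Microsomal P450 enzymes insert oxygen into their substrates with electrons that NADPH-cytochrome P450 reductase, the product of *Por*, passes on from NADPH. Flavin monooxygenases take electrons from NADPH directly and need no reductase. The aryl hydrocarbon receptor is a ligand-activated transcription factor that binds DNA with the core letters GCGTG and induces *Cyp1a1* and *Cyp1b1* when planar aromatic pollutants bind it. Lung P450s are known for turning inhaled compounds into reactive products in club cells and AT2 cells.

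The 6 libraries held 21554249 to 28440227 counts. Levels are given in CPM, the counts of a gene after division by its library's TMM-scaled total. At this depth 3 counts correspond to 0.105 to 0.139 CPM, and every gene of the group lay above that in every library. *Sftpc* was at 42700 to 60123 CPM, and all 10 AT2 markers of a list were detected. *Bmpr1a* did not separate the groups (log2 fold change -0.015), whereas *Id1*, a direct BMP target, was at 18.5, 20.8 and 19.2 CPM in AT2-CTRL and 124, 177 and 411 CPM in AT2-CAB. The first AT2-CTRL library and the third AT2-CAB library carried Y-linked reads (172 and 158 CPM over *Ddx3y*, *Uty*, *Kdm5d* and *Eif2s3y*), and the other 4 carried none. In bulk libraries of this kind, fewer cells of a type and less RNA per cell cannot be told apart.

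*Cyp2b10* gave the widest gap between the groups. It encodes the mouse CYP2B enzyme that phenobarbital induces in liver through the receptor CAR, and its gene spans 25897658 to 25926624 of chromosome 7 (mm10, plus strand), with 9 exons in the count table. Its level was 277, 179 and 87.9 CPM in AT2-CTRL replicates 1, 2 and 3 and 72.4, 62.6 and 68.3 CPM in AT2-CAB. Every AT2-CAB library lay below every AT2-CTRL library. The control libraries were themselves far apart, with 3.15-fold between the highest and the lowest, against 1.16-fold in AT2-CAB. The means were 181 ± 94.5 and 67.8 ± 4.91 CPM (SD, n = 3 each), a log2 fold change of -1.42 with an SE of 0.35 and a 95% interval from -2.21 to -0.63. The adjusted p was 0.232 by edgeR's quasi-likelihood test, Benjamini-Hochberg adjusted over all tested genes, so the difference missed the threshold of 0.05. With DESeq2 the log2 fold change was -1.40 and the adjusted p 0.00151, so the call depended on the tool. Among all tested genes, 10.1% had every AT2-CAB library below every AT2-CTRL library, and *Cyp2b10* was the single gene of the 10 to do so.

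The estimate also moved with the library that was left out. Without AT2-CTRL replicate 1, the highest library and one of the 2 with Y-linked reads, the log2 fold change was -0.98, and without AT2-CTRL replicate 3, the lowest control, it was -1.75. Over the 4 libraries without Y-linked reads it was -0.95. Between the 2 libraries with Y-linked reads the log2 ratio was -2.02, and between the 2 mice of 16 weeks it was -1.31. All 17 alternative settings kept the lower level in AT2-CAB, from -1.75 to -0.95, and 2 of them passed the threshold. The summed level of the 10 AT2 markers was also lower in every AT2-CAB library (101572 to 116114 CPM) than in any control (124469 to 138937 CPM). As a percentage of that sum, *Cyp2b10* was 0.199, 0.141 and 0.0706 in AT2-CTRL and 0.0623, 0.0588 and 0.0672 in AT2-CAB, so the groups did not overlap on this scale either. Most of the sum came from *Sftpc* and *Sftpb*, whose log2 fold changes were -0.15 and 0.013. Of the 10 AT2 markers, 6 had every AT2-CAB library below every control, against 10.1% of all tested genes. Whether *Cyp2b10* fell beyond those 6 markers was not tested. With a term for Y-linked reads in the model the log2 fold change was -1.33 (adjusted p = 0.0462 by the quasi-likelihood test of edgeR).

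**Figure D1:**
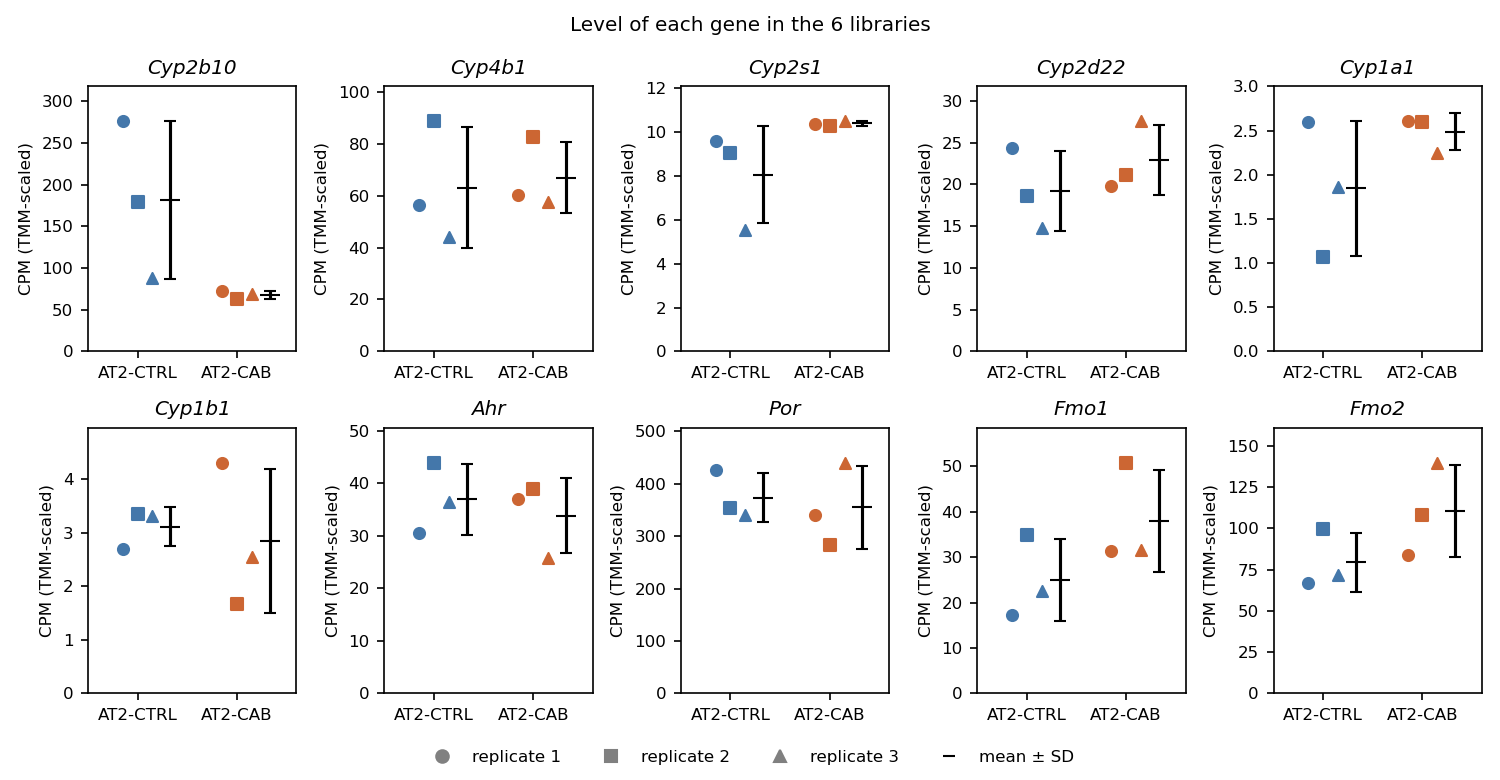
Level of each of the 10 genes in every library, in CPM on a linear axis that starts at 0. Point shapes mark replicates, and lines with error bars are group means with the SD (n = 3). *Cyp2b10* is the one gene whose AT2-CAB libraries (62.6 to 72.4 CPM) all lie below the AT2-CTRL libraries (87.9 to 277 CPM).

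**Figure D2:**
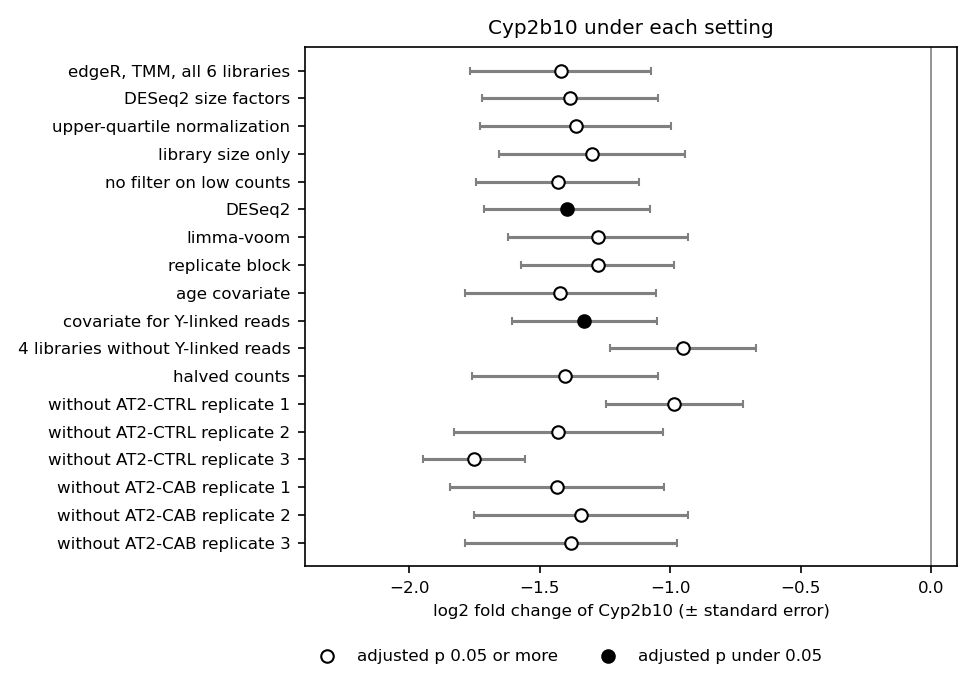
Log2 fold change of *Cyp2b10*, AT2-CAB over AT2-CTRL, as reported and under each alternative setting. Bars are the standard error, and filled points have an adjusted p under 0.05. All points lie below 0, between -1.75 and -0.95.

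The bases just upstream of 3 of the genes are shown because *Cyp2b10* carried the widest difference while *Cyp1a1* and *Cyp1b1* are the textbook AHR targets. Each run is the 250 bases before the RefSeq start of the gene in GRCm38.p6 (mm10), read 5′ to 3′ on the strand of the gene, with GCGTG or its reverse complement CACGC, and the TATA letters TATAAA, in capitals. The windows are chr7:25897408-25897657 on the plus strand for *Cyp2b10*, chr9:57697363-57697612 on the plus strand for *Cyp1a1* and chr17:79715062-79715311 on the minus strand for *Cyp1b1*. The *Cyp1a1* window lies inside the span of the gene in the count table, which also lists an exon further upstream, and it ends where the next exon of the table begins.
Cyp2b10: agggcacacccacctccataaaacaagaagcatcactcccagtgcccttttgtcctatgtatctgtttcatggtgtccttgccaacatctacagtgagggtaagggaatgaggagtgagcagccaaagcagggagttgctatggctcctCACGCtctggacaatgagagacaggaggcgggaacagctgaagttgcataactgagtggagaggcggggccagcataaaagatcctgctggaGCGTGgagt
Cyp1a1: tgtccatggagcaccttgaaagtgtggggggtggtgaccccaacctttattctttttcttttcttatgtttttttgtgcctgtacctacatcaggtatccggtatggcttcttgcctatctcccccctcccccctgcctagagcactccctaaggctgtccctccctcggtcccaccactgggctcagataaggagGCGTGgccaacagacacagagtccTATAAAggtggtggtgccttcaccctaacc
Cyp1b1: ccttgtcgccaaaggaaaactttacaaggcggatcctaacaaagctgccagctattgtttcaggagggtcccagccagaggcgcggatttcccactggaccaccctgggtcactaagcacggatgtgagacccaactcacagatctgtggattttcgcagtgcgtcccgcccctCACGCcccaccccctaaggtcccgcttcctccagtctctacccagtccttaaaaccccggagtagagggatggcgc

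Searched on both strands, GCGTG stood at 2 places before *Cyp2b10*, 1 before *Cyp1a1* and 1 before *Cyp1b1*. It stood at 3 places before *Por* and at none before *Fmo2*, *Cyp4b1* and *Cyp2s1*. Of all 32851 RefSeq windows of this length, 28.2% held it. The GC-rich letters GGCGCC, a SMAD1/5 element held by 9.59% of all windows, were in none of the windows of these 7 genes. TATAAA, searched on both strands, was in the *Cyp1a1* window alone and in 12.4% of all windows. The 3 motifs did not overlap in the printed runs. A match is a description of the letters and not evidence of binding. RefSeq windows of *Cyp2d22*, *Ahr* and *Fmo1* were not analysed here.

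The other P450 genes showed no comparable gap. *Cyp4b1*, a fatty acid hydroxylase that activates several lung toxicants (chromosome 4, from 115624728 to 115647705, minus strand), was at 56.4, 88.9 and 43.9 CPM in AT2-CTRL and 60.4, 82.7 and 57.6 CPM in AT2-CAB. The second library was the highest in both groups and the ranges overlapped. Its log2 fold change was 0.085 (95% interval from -0.50 to 0.67, adjusted p = 0.929 by edgeR's quasi-likelihood test), and the interval leaves out a 2-fold change in either direction.

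*Cyp2s1*, an epithelial P450 that is inducible by dioxin and metabolises retinoic acid (chromosome 7, from 25802476 to 25816530, minus strand), was at 9.59, 9.04 and 5.52 CPM in AT2-CTRL and 10.4, 10.3 and 10.5 CPM in AT2-CAB. It was the single gene of the 10 with every AT2-CAB library above every AT2-CTRL library, which held for 7% of all tested genes. The gap between the highest control and the lowest AT2-CAB library was small beside the distance of the third control from the others. The log2 fold change was 0.37 ± 0.22 (SE), with an adjusted p of 0.635 by the quasi-likelihood test of edgeR.

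*Cyp2d22*, one of the mouse CYP2D enzymes (chromosome 15, from 82370527 to 82380260, minus strand), was at 24.3, 18.6 and 14.8 CPM in AT2-CTRL and 19.8, 21.2 and 27.6 CPM in AT2-CAB. The ranges overlapped, and the highest library of each group was the one with Y-linked reads. The log2 fold change was 0.25 ± 0.21 (SE), and the adjusted p was 0.720 by the quasi-likelihood test of edgeR.

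The 2 textbook AHR targets *Cyp1a1* and *Cyp1b1* were the lowest of the 10 genes. *Cyp1a1*, which oxidises polycyclic aromatic hydrocarbons (chromosome 9, from 57687928 to 57703824, plus strand), was at 2.60, 1.07 and 1.87 CPM in AT2-CTRL and 2.61, 2.60 and 2.25 CPM in AT2-CAB, from 25 to 69 counts a library. *Cyp1b1*, which also hydroxylates oestradiol (chromosome 17, from 79706953 to 79715041, minus strand), was at 2.69, 3.34 and 3.31 CPM in AT2-CTRL and 4.31, 1.67 and 2.54 CPM in AT2-CAB. In both genes the groups overlapped, and *Cyp1b1* had both its highest and its lowest library in AT2-CAB.

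The log2 fold change was 0.43 with a 95% interval from -0.53 to 1.39 for *Cyp1a1*, and -0.14 with an interval from -1.06 to 0.78 for *Cyp1b1*. Each interval includes a 2-fold change in 1 direction. *Ahr* itself (chromosome 12, from 35497979 to 35534989, minus strand) was at 30.5, 44.0 and 36.4 CPM in AT2-CTRL and 37.0, 38.9 and 25.8 CPM in AT2-CAB. The groups overlapped, and the lowest library of each was the one with Y-linked reads. Its log2 fold change was -0.13 ± 0.19 (SE), with an adjusted p of 0.863 by the quasi-likelihood test of edgeR.

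*Por* (chromosome 5, from 135689145 to 135735326, plus strand, 16 exons) was the most abundant of the 10 genes. Its level was 426, 353 and 340 CPM in AT2-CTRL and 340.2, 284 and 440.2 CPM in AT2-CAB. The groups overlapped throughout, and the 2 libraries with Y-linked reads were the highest, with a mean of 433 CPM against 329 CPM in the other 4. The log2 fold change between groups was -0.073 with a 95% interval from -0.49 to 0.35 and an adjusted p of 0.918 by the quasi-likelihood test of edgeR. Both Y-linked libraries lay above the other 4 for 2 of the 10 genes (*Por* and *Cyp2d22*) and for 19.5% of all tested genes. They lay below for 1 of the 10 (*Ahr*) and for 15.8% of all tested genes.

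The 2 flavin monooxygenases had positive estimates that did not reach the threshold. *Fmo2*, the main pulmonary form (chromosome 1, from 162875047 to 162898712, minus strand), was at 67.0, 99.5 and 71.5 CPM in AT2-CTRL and 84.0, 108 and 139.8 CPM in AT2-CAB. *Fmo1* (chromosome 1, from 162829561 to 162866548, minus strand) was at 17.4, 34.8 and 22.6 CPM in AT2-CTRL and 31.3, 50.8 and 31.6 CPM in AT2-CAB. In both genes the second control library overlapped AT2-CAB, while the other 2 controls lay below all AT2-CAB libraries.

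The log2 fold change was 0.48 for *Fmo2* (95% interval from -0.014 to 0.97) and 0.60 for *Fmo1* (from -0.039 to 1.25). Their adjusted p-values were 0.528 and 0.541 by the quasi-likelihood test of edgeR, so neither passed. Over the 17 alternative settings the estimate ranged from 0.34 to 0.92 for *Fmo1* and from 0.20 to 0.67 for *Fmo2*. For *Fmo2* the log2 ratio was 1.06 between the 2 libraries with Y-linked reads and -0.24 between the 2 mice of 16 weeks. With 1 library with Y-linked reads in each group, whether the group difference depends on them rests on a single pair. The fitted interaction was 0.89 for *Fmo2*, -1.04 for *Cyp2b10* and -1.03 for *Cyp1a1*, with adjusted p-values of 0.242, 0.406 and 0.635 by the quasi-likelihood test of edgeR.

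**Figure D3:**
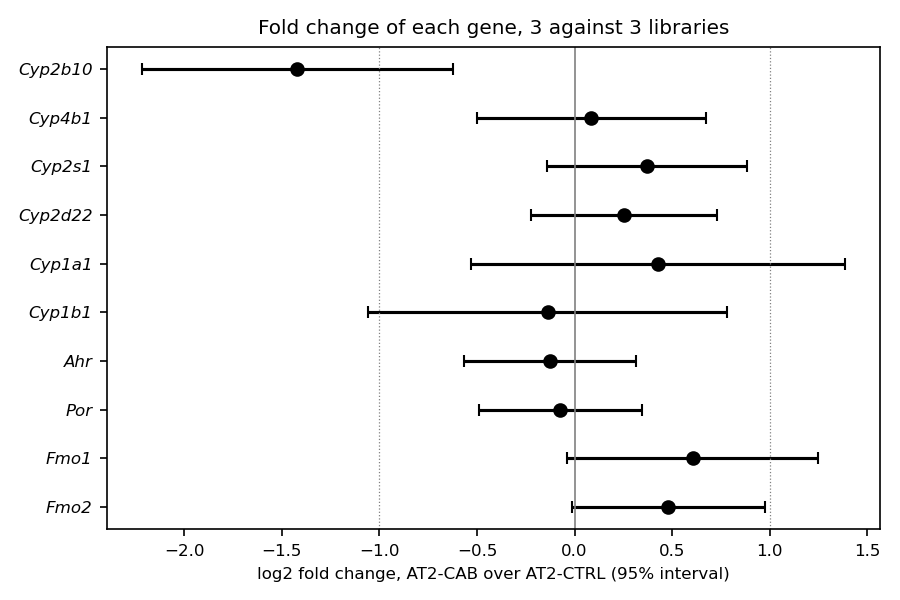
Log2 fold change of each gene, AT2-CAB over AT2-CTRL, from edgeR, with 95% intervals (3 libraries a group) and dotted lines at a 2-fold change. The *Cyp2b10* interval (-2.21 to -0.63) is the one that excludes 0, and its adjusted p was 0.232.

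Counted together, 6 of the 10 genes had a higher and 4 a lower estimate in AT2-CAB, with a median log2 fold change of 0.17 against -0.0096 over all tested genes. None of the 10 reached the adjusted threshold of 0.05 by the quasi-likelihood test of edgeR in either direction, where 0.239% of all tested genes were called higher and 0.012% lower. With a change of more than 2-fold required as well, these shares were 0.227% and 0.012%. At an unadjusted p under 0.05, 1 of the 10 was lower (*Cyp2b10*) and 0 were higher, against 5.05% and 4.62% of all tested genes. DESeq2 called 1 of the 10 lower, again *Cyp2b10*, by more than 2-fold. Of the 13672 genes that DESeq2 tested, 25 were lower and 119 higher at an adjusted p under 0.05 and more than 2-fold.

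Divided by exon length, the group means of the 10 levels fell in the same order in both groups, although many neighbours could not be ranked. In AT2-CTRL it ran from *Por* (148 ± 18.4 CPM per kb) and *Cyp2b10* (96.6 ± 50.3) through *Cyp4b1* (33.7 ± 12.4), *Fmo2* (23.8 ± 5.28), *Fmo1* (10.7 ± 3.85), *Cyp2d22* (6.94 ± 1.74), *Ahr* (6.73 ± 1.23) and *Cyp2s1* (3.07 ± 0.843) to *Cyp1a1* (0.662 ± 0.274) and *Cyp1b1* (0.608 ± 0.0719). In AT2-CTRL, library ranges overlapped for 6 of the 9 neighbouring pairs, namely *Por* and *Cyp2b10*, *Cyp2b10* and *Cyp4b1*, *Cyp4b1* and *Fmo2*, *Fmo1* and *Cyp2d22*, *Cyp2d22* and *Ahr*, and *Cyp1a1* and *Cyp1b1*. In AT2-CAB they overlapped for 3 of the 9, *Cyp2b10* and *Cyp4b1*, *Cyp4b1* and *Fmo2*, and *Cyp1a1* and *Cyp1b1*. The ranges of *Por* and *Cyp2b10* overlapped in AT2-CTRL, where the mean of *Por* was 1.53 times that of *Cyp2b10*. They did not overlap in AT2-CAB, where it was 3.89 times. In AT2-CAB, *Cyp2b10* (36.1 ± 2.61 CPM per kb) and *Cyp4b1* (35.7 ± 7.35) could not be ranked.

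The share of each P450 in the summed level per kb of all 102 annotated P450 rows was a second view of the same libraries. *Cyp2b10* made up 29.6, 21.5 and 12.6% of this pool in AT2-CTRL and 11.7, 10.4 and 11.7% in AT2-CAB. The groups did not overlap, with a mean of 21.2 ± 8.47% against 11.3 ± 0.727% and an exact two-sided permutation p of 0.1. That is the smallest p that 3 against 3 libraries allow, so no share could pass 0.05. The difference of -9.98 percentage points was -5.82 without AT2-CTRL replicate 1 and -14.3 without AT2-CTRL replicate 3. *Cyp4b1* made up 7.70 ± 2.62% and 11.2 ± 2.30% (exact permutation p = 0.3), and these ranges overlapped.

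The shares of *Cyp2s1* (0.694 ± 0.111% and 1.24 ± 0.0485%), *Cyp2d22* (1.57 ± 0.169% and 2.59 ± 0.551%) and *Cyp1a1* (0.152 ± 0.0562% and 0.278 ± 0.0168%) lay higher in every AT2-CAB library than in any control. Outside the chosen genes, the shares of *Cyp4f13*, *Cyp39a1* and *Cyp4f16* also lay higher in every AT2-CAB library than in any control. Those of *Cyp2f2*, *Cyp4v3* and *Cyp51* overlapped between groups. The separation was thus not particular to the chosen genes, and how many of all pool rows showed it is not given here. Shares sum to the whole, so a lower share of one gene raises those of the others. The summed level was 437 ± 64.3 CPM per kb in AT2-CTRL and 320.2 ± 9.90 in AT2-CAB, and every AT2-CAB library lay below every control (exact permutation p = 0.1). Without *Cyp2b10* the sums were 351, 348 and 324 CPM per kb in AT2-CTRL and 292, 286 and 274 in AT2-CAB, again without overlap (exact permutation p = 0.1). *Cyp2f2* and *Cyp4v3* were the 2 of 46 other tested P450 genes with every AT2-CAB library below every control. This held for 10.1% of all tested genes. *Cyp4v3* was at 178, 197 and 192 CPM in AT2-CTRL and 155, 116 and 81.8 CPM in AT2-CAB. Its log2 fold change was -0.69, with an adjusted p of 0.357 by the quasi-likelihood test of edgeR. The level of *Cyp2b10* relative to that of *Por*, each per kb, was 0.874, 0.683 and 0.348 in AT2-CTRL and 0.286, 0.297 and 0.209 in AT2-CAB. The ratio of the sums ranged from 0.732 to 0.799 over 4 scalings with *Cyp2b10*, and from 0.834 to 0.911 without it.

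*Cyp2f2*, the naphthalene-activating P450 of club cells, held the largest mean share of the pool, at 24.5 ± 3.61% in AT2-CTRL and 22.9 ± 0.874% in AT2-CAB. Its level was 214, 173 and 192 CPM in AT2-CTRL and 134, 139 and 127 CPM in AT2-CAB, with no overlap. The log2 fold change of *Cyp2f2* was -0.53 ± 0.12 (SE), with an adjusted p of 0.190 by the quasi-likelihood test of edgeR. *Cyp2f2* is itself one of the 6 club and airway secretory markers, of which 1 was higher and 5 were lower. The other 5 summed to 427 to 663 CPM in AT2-CTRL and 460 to 670 CPM in AT2-CAB, nearly all of it from *Scgb1a1*, the club cell secretoglobin. The part of club cells in the *Cyp2f2* values was not tested.

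**Figure D4:**
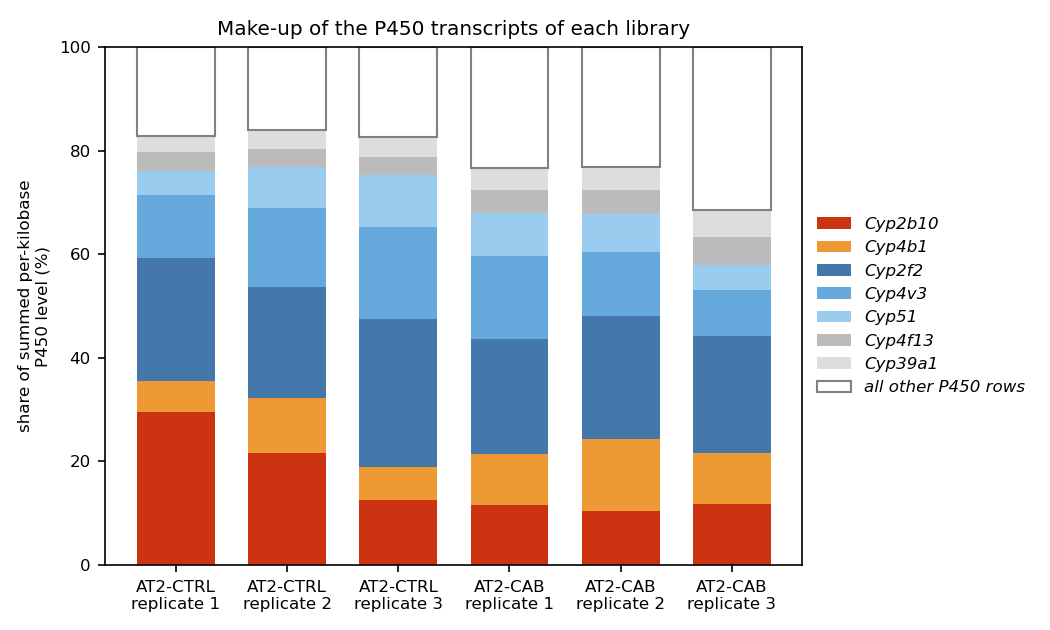
Stacked bars of the share of the summed P450 level per kb, in percent, in every library, for *Cyp2b10*, *Cyp4b1* and the 5 other P450 genes with the largest shares, with all remaining P450 rows in white. The *Cyp2b10* share lies between 12.6 and 29.6% in AT2-CTRL and between 10.4 and 11.7% in AT2-CAB.

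The wider pathway was described from 7 lists, and no gene of them reached the adjusted threshold of 0.05 by the quasi-likelihood test of edgeR. Of 95 other P450 genes, 46 were tested, and 33 had a higher and 13 a lower estimate (median log2 fold change 0.36). A gene at low counts can pass the filter through the group where it is high. *Cyp4f37* had 13, 1 and 3 counts in AT2-CTRL and 12, 19 and 14 in AT2-CAB. The balance moved with the libraries used, and so did the number of genes tested. Without AT2-CAB replicate 3, 20 of 43 were higher and 23 lower (median -0.067). Over the 4 libraries without Y-linked reads, 26 of 40 were higher and 14 lower (median 0.14). Without AT2-CTRL replicate 1, 41 of 50 were higher and 9 lower (median 0.63). Both libraries with Y-linked reads lay above the other 4 for 17 of the 46 genes, against 19.5% of all tested genes. Of the 12 redox partners and chaperones that serve P450s, 2 were higher and 10 lower (median -0.15), with *Cyb5b*, an outer mitochondrial membrane cytochrome b5, at -0.44 and *Fdxr*, the mitochondrial ferredoxin reductase, at -0.38. Of 12 tested genes of the AHR complex and its targets, 4 were higher and 8 lower (median -0.11).

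In that AHR list the quinone reductase *Nqo1* was at 2.60, 1.20 and 2.06 CPM in AT2-CTRL and 3.48, 2.21 and 7.75 CPM in AT2-CAB, with overlapping groups and a log2 fold change of 1.20. *Aldh3a1*, an aldehyde dehydrogenase, had a log2 fold change of -0.81. Neither *Nqo1* (adjusted p = 0.509 by the quasi-likelihood test of edgeR) nor *Aldh3a1* (adjusted p = 0.421) passed.

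Of 6 tested nuclear receptors that sense foreign compounds, 4 were higher and 2 lower (median 0.15). *Nr1i3*, which encodes CAR, was named after its values were seen. It had 10, 4 and 5 counts in AT2-CTRL and 1, 0 and 2 counts in AT2-CAB, too few to be tested. Of 9 heme synthesis genes, which supply the P450 cofactor, 1 was higher and 8 lower (median -0.038), and *Alad* was at 132, 195 and 227 CPM in AT2-CTRL and 116, 113 and 93.8 CPM in AT2-CAB (log2 fold change -0.78, adjusted p = 0.264 by the quasi-likelihood test of edgeR). *Alad* did not overlap between groups, as 10.1% of tested genes did not in that direction. Of 17 tested conjugation and other drug metabolism genes, 10 were higher and 7 lower (median 0.082). Among these *Ces1g* had the largest change in size, at 1.61, 0.386 and 1.22 CPM in AT2-CTRL and 2.25, 4.77 and 4.88 CPM in AT2-CAB. Its log2 fold change was 1.89 (adjusted p = 0.348 by the quasi-likelihood test of edgeR), from 9 to 150 counts a library. The aldehyde oxidase *Aox3* was at 431, 577 and 624 CPM in AT2-CTRL and 315, 179 and 70.9 CPM in AT2-CAB. The log2 fold change of *Aox3* was -1.53 (adjusted p = 0.339 by the quasi-likelihood test of edgeR).

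Close relatives of *Cyp2b10* had far lower counts. Reads shared by genes were not counted, so these counts do not show how many such reads were lost. *Cyp2b9* had 7 to 37 counts, *Cyp2b13* 2 to 20 and *Cyp2b23* 17 to 89 in the 6 libraries, against 1579 to 6175 for *Cyp2b10*. None of the 10 genes shared exon bases with another gene of the table.

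Genes whose pattern over the 6 libraries lay nearest to that of *Cyp2b10* were *Acot1*, an acyl-CoA thioesterase, and *Angptl4*, an inhibitor of lipoprotein lipase. Their log2 CPM, centred on the mean of the 6 libraries, differed from *Cyp2b10* by a root mean square of 0.278 and 0.286. *D630024D03Rik* (0.294), *1810010H24Rik* (0.306) and *Nnat* (0.356) came next. Their own log2 fold changes ran from -1.65 to -0.98, and none reached the adjusted threshold of 0.05 by the quasi-likelihood test of edgeR.

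Markers of other cell types were summed beside the 10 genes. All 10 endothelial markers had a higher estimate in AT2-CAB, with sums of 279, 622 and 411 CPM in AT2-CTRL and 524, 875 and 572 CPM in AT2-CAB. All 10 mesenchymal markers did too, from 225 to 328 CPM in AT2-CTRL and from 378 to 472 CPM in AT2-CAB. Of the AT2 markers, whose sums are given beside *Cyp2b10*, 1 was higher and 9 were lower. Of the AT1 markers 8 were higher and 2 lower, from 2524 to 3392 and from 2796 to 3313 CPM. Of the 5 tested ciliated markers 4 were higher and 1 lower, and the sums were 382 to 404 CPM in AT2-CTRL and 525 to 745 CPM in AT2-CAB. That gap was carried by *Tppp3*, since without it the sums overlapped (289 to 300.0 and 282 to 306 CPM). Of the leukocyte markers 8 were higher and 2 lower, whereas the sums were 1992 to 2708 CPM in AT2-CTRL and 317 to 1390 CPM in AT2-CAB. The lysozyme gene *Lyz1* made up most of these sums, and without it they were 70.0 to 81.3 CPM in AT2-CTRL and 62.1 to 147 CPM in AT2-CAB, with overlap. No marker was at 0 in every library.

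*Fmo1* followed the endothelial markers more closely than any other of 70 pairs of a gene and a marker list, a pair chosen after its values were seen. As a percentage of the endothelial sum, *Fmo1* was 6.22, 5.60 and 5.50 in AT2-CTRL and 5.97, 5.80 and 5.52 in AT2-CAB. The highest of these was 1.13 times the lowest, whereas the level of *Fmo1* itself spanned 2.93-fold. The group means of this percentage were 5.77 ± 0.392 and 5.76 ± 0.230. *Fmo1* over the mesenchymal sum ranked 2 of the 70 pairs, with a span of 1.39-fold. Its group means were 8.95 ± 1.49% in AT2-CTRL and 9.08 ± 1.47% in AT2-CAB. The ratio of *Cyp2b10* to the endothelial sum spanned 13.9-fold, and that to the AT2 sum 3.39-fold. The part of other cell types in the *Fmo1* values was not tested.

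**Figure D5:**
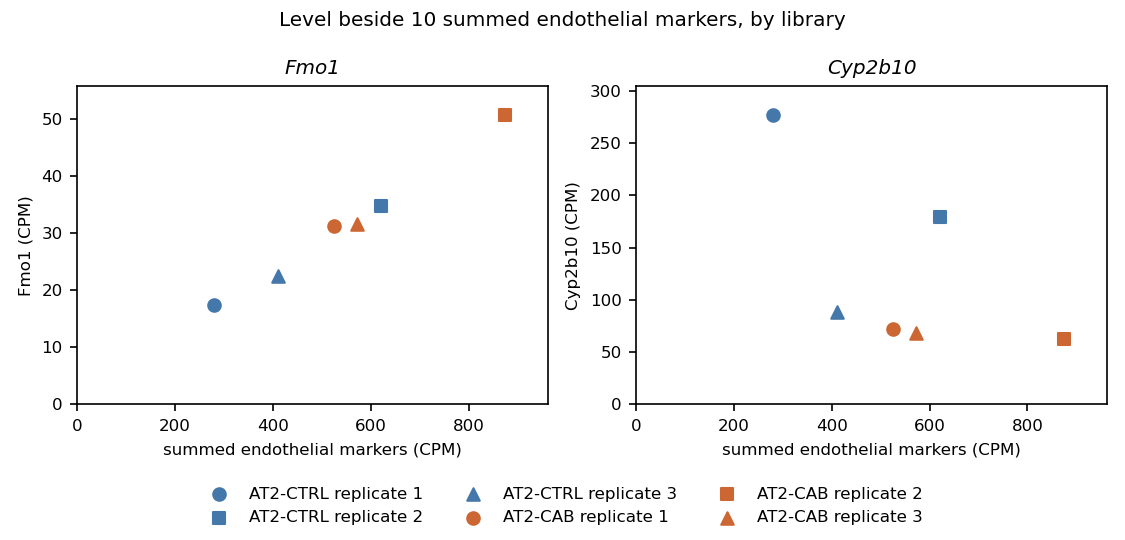
Level of *Fmo1* and of *Cyp2b10* in CPM against the summed level of 10 endothelial markers in CPM, with 1 point per library and axes from 0. *Fmo1* lies between 5.50 and 6.22% of the marker sum in all 6 libraries. This pair was picked, after the values were seen, as the one with the smallest span of 70 pairs. The ratio of *Cyp2b10* to the same sum spans 13.9-fold.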

How the data were processed

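The authors sequenced polyA RNA of sorted AT2 cells in paired-end reads and deposited 1 table of raw counts per gene, with exon lengths. Per the methods and the file header, reads were trimmed (PRINSEQ, Trimmomatic), aligned to mm10 (Hisat2), stripped of duplicates (SAMtools) and counted with featureCounts 1.5.3, without options for strand, read pairs or multi-mapping reads. Reads from both strands are therefore summed, both mates of a pair can count, and reads shared by genes are not counted. Groups and replicates came from the sample labels, where the mice differ in age. Labels name 3 mice per group.

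The group difference was fitted per gene in R 4.3.3 with edgeR 4.0.16, using TMM scaling, its default filter (minimum count 10) and its quasi-likelihood test, and p-values were adjusted by Benjamini-Hochberg over all tested genes. A pseudocount of 0.5 CPM was used only for centred values. CPM values are scaled by TMM. Alternatives were DESeq2 1.42.0, limma 3.58.1 (voom), other scalings, no filter, halved counts, age, Y-linked reads or replicate number as terms, and leaving out each library. The interaction with Y-linked reads, ratios to marker sums, pool sums under other scalings, marker sums without their leading gene and fits of the other P450 genes without the Y-linked libraries were chosen after seeing the data. Members and lists were chosen with earlier results of these data known, and list genes are those past the threshold, or otherwise the 2 with the largest change in size with a mean of at least 1 CPM, of which only some are given here. Upstream windows are RefSeq, GRCm38.p6, for 7 of 10 genes. Counting intervals were not used for tests, and a floor of 3 counts covers counting error only.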

Additional observations from a re-analysis of the deposited data

How the results depend on the processing

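None of the 10 genes passed the threshold of 0.05 by the quasi-likelihood test of edgeR, and DESeq2 and a term for Y-linked reads each called 1 of them lower, *Cyp2b10* in both (log2 fold change -1.40 and -1.33). Over all 16723 tested genes, 38 were called higher and 2 lower (adjusted p under 0.05 and more than 2-fold). These calls became 119 and 25 with DESeq2, which tested 13672 genes, and 25 and 1 with limma-voom. They were 108 and 34 of 16723 genes with a term for Y-linked reads, and 48 and 8 in the 4 libraries without such reads. Lower calls were 1 with upper-quartile scaling, 1 with library size alone, 5 without a filter and 1 with age as a term. Leaving out 1 library gave 6 to 59 higher and 0 to 4 lower calls, and a median log2 fold change of the 10 genes from -0.0024 (without AT2-CTRL replicate 3) to 0.28.

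Replicate numbers belong to different mice and did not pair the samples: the correlations of same-numbered deviations were -0.32, 0.25 and -0.54, and 1 of 6 libraries correlated best with its own number. Under a replicate block, 36 genes were called higher and 5 lower, and *Cyp2b10* was at -1.28 (adjusted p = 0.260 by the quasi-likelihood test of edgeR).

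Signs turned where estimates were near 0. *Por* was at 0.0059 under upper-quartile scaling and 0.060 under scaling by library size alone, and *Ahr* at 4.98e-05 with library size alone, which moved the median of all genes from -0.0096 to 0.12. Over the 6 fits without 1 library, *Por* ranged from -0.22 to 0.080, *Ahr* from -0.25 to 0.074, *Cyp4b1* from -0.12 to 0.41 and *Cyp1b1* from -0.54 to 0.15, and the difference in *Cyp1b1* pool share from -0.012 to 0.065 percentage points. The other genes and pool shares kept their sign under every alternative run. At 25 to 94 counts a library, the intervals of *Cyp1a1* and *Cyp1b1* include 2-fold changes.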
